A study of Mus musculus with 4 samples.

Results

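The genes described here are 9 components of the junctions between endothelial cells: Cldn5, Ocln, F11r, Jam2, Esam, Cdh5, Pecam1, Tjp1 and Cgn. They were taken by symbol from a table of 32285 genes, and all 9 were listed. Their transcripts were counted in mouse lung cells profiled by droplet single-cell RNA sequencing after beads had removed cells carrying CD45, a leukocyte surface protein, and had kept cells carrying CD31. CD31 is the protein of Pecam1, so the presence of Pecam1 in these cells is a condition of the selection and not a finding. Of the 4 groups, 3 were sampled 7 days after PNX, which commonly stands for pneumonectomy, an operation that takes out part of the lung. These were the conditional knockouts called M3cKO and Foxo1cKO (M3cKO PNX and Foxo1cKO PNX) and the wild type (WT PNX), and the fourth was wild-type mice after a sham operation (sham). The sources used here do not give the gene meant by M3, the promoter or cell type that drives the knockouts, the strain, the age, the sex or the number of animals. With 1 library per group, no spread between animals could be measured and no test was possible. All intervals below are 95% intervals that cover counting error only.

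Endothelial cells seal the vessel wall with 2 kinds of contact. Tight junctions are built from claudins, occludin and the junctional adhesion molecules and are anchored to actin by scaffolds such as ZO-1. Adherens junctions are built on VE-cadherin, which binds the same protein on the neighbouring cell and is held by catenins. In lung these contacts limit the leak of fluid and the passage of leukocytes into the airspace, and they are taken apart and rebuilt when vessels grow.

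Cells were called endothelial when they had at least 500 genes, at most 10% mitochondrial UMIs, at least 2 UMIs over Egfl7, Ramp2 and Tie1, and none of Ptprc, Epcam, Col1a1 and Col1a2. A UMI is a molecular barcode that marks 1 captured transcript. No junction gene was used in this gate, though the beads had selected on CD31, the protein of Pecam1. The gate held 2368 cells in M3cKO PNX, 3698 in Foxo1cKO PNX, 3774 in WT PNX and 4567 in sham, 14407 of 34683 barcodes in all, with 6214663 to 13488091 summed UMIs per library. Levels are CPM, the UMIs of a gene per 1000000 of these sums. All 6 pan-endothelial markers kept apart from the gate were detected in each library, with summed levels of 4328 to 5324 CPM. Foxo1 was at 185 CPM in M3cKO PNX, 69.3 in Foxo1cKO PNX, 207 in WT PNX and 195 in sham, so the Foxo1cKO label is matched by the lowest level.

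The libraries also stood apart in ways their labels do not state. The gated cells were 42.7% of the cells that passed the gene and mitochondrial filters in M3cKO PNX, 57.2% in Foxo1cKO PNX, 59.0% in WT PNX and 85.9% in sham. Xist was at 155 CPM in Foxo1cKO PNX and 132 CPM in WT PNX and at 0 in M3cKO PNX and sham, so 2 libraries held female-type cells and the other two did not. Female-type cells here carry Xist and no Y-linked UMI, and male-type cells the reverse, and all other cells stayed unsorted. Male-type cells were 722 of 2368 gated cells in M3cKO PNX and 557 of 3698 in Foxo1cKO PNX. WT PNX had 784 of 3774 and sham 1181 of 4567. Their median depths were 2851, 3471, 4182 and 2326 UMIs in that order, against 2086, 2508, 2691.5 and 1855 in all gated cells. Results in male-type cells alone are given where sex bears on them. They cover a minority of cells, deeper than the gate and of unequal depth between libraries. Clusters led by markers of other cell types made up 3.42% of gated cells in M3cKO PNX, 4.16% in Foxo1cKO PNX, 6.07% in WT PNX and 2.47% in sham. Pairs of libraries shared 68 to 111 barcodes.

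Cldn5 encodes claudin-5, the main claudin of endothelial tight junctions. The gene lies on chromosome 16 of GRCm38 (18776847 to 18778262, plus strand, ENSMUSG00000041378). Its transcripts reached 1124 CPM (1097 to 1150.3) in M3cKO PNX, 781 (765 to 797) in Foxo1cKO PNX, 832 (816 to 847) in WT PNX and 1731 (1705 to 1756) in sham. All 3 PNX libraries lay below sham, and M3cKO PNX lay above both other PNX libraries. The WT PNX level was 2.08-fold lower than the sham level (2.03 to 2.13), and no other member was at least 1.5-fold lower in that comparison. Against WT PNX, the M3cKO PNX level was 1.35 times as high (1.31 to 1.39) and the Foxo1cKO PNX level 0.939 times (0.914 to 0.965), both inside 1.5-fold. Under other settings the M3cKO PNX ratio ran from 1.08 (at most 5% mitochondrial UMIs) to 1.51 (median-of-ratios size factors).

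Of the 9 members, 5 matched the RefSeq promoter table of GRCm38.p6 (Cldn5, Ocln, Tjp1, F11r and Cgn). The 250 bases before the start are printed for Cldn5 and F11r, the members that differ most between WT PNX and sham and between Foxo1cKO PNX and WT PNX. The start is that of the promoter table. For F11r the window ends at 171437560, inside the gene as placed below, which starts at 171437535. Capitals mark each CCAAT or its reverse complement ATTGG, the letters of the CCAAT box.
Cldn5, chr16:18776597-18776846, plus strand: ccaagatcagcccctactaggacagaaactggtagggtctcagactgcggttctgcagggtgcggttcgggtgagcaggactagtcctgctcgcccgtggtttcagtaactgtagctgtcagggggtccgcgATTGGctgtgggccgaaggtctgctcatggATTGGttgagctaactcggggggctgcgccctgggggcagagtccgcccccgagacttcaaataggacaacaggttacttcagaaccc
F11r, chr1:171437311-171437560, plus strand: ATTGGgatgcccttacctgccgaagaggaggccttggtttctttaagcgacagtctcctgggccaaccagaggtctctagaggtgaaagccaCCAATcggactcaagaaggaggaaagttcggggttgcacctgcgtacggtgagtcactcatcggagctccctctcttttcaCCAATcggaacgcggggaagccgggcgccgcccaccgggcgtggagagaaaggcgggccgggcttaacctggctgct
Cldn5 held 2 such matches and F11r 3, and 33.8% of all 32851 promoter windows of this length held at least 1. GTAAACA, the letters of a forkhead element such as FOXO1 binds, was in 3.17% of all windows and in none of the 6 windows of the members. CCGGAAG (ETS, 6.91% of all windows) and CTTTGAT (TCF/LEF, 3.21%) were searched on both strands too and were in none of the 6. These are matches of letters and say nothing of binding.

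The difference in Cldn5 was present in most kinds of endothelium. Clustering without any junction gene gave 8 named classes: aerocytes, which are the Car4-high capillary cells of gas exchange, general capillary cells, arterial, venous and lymphatic cells, proliferating cells, and cells in an interferon or a stress state. The WT PNX to sham ratio of Cldn5 was below 1 in 8 of 8 classes and past 1.5-fold in 7 of them. The share of all measured genes that were 1.5-fold apart in a class, in either direction, ran from 17.5% in aerocytes to 59.3% in proliferating cells. In aerocytes Cldn5 was at 1490.1 CPM in WT PNX against 2319 CPM in sham, and in general capillary cells at 1059 CPM against 1993 CPM. The ratio was lowest in venous cells, at 258 CPM in WT PNX against 709 in sham (0.364, 0.324 to 0.408). It was closest to 1 in proliferating cells (0.8999, 0.638 to 1.31), of which sham held 19. In male-type cells alone the WT PNX level was 765 CPM against 1725 CPM in sham (0.443, 0.424 to 0.463).

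The share of gated cells with a Cldn5 UMI was 78.3% in M3cKO PNX, 72.2% in Foxo1cKO PNX, 78.5% in WT PNX and 88.2% in sham. With every cell thinned to 2000 UMIs these shares were 75.5%, 64.9%, 69.4% and 86.4% in the same order, and 1126, 1209, 1062 and 2574 shallower cells were left out. B cells, which lack claudin-5, carried a Cldn5 UMI in 2.28%, 1.95%, 3.92% and 0% of 219, 411, 383 and 33 cells, where 0 of 33 allows a share of up to 9.09%. Their median depths were 2725, 2072, 1901 and 1551 UMIs, against 2086, 2508, 2691.5 and 1855 in the gated cells, so the shares in the gate lay far above this background. Cldn5 UMIs per 100 Cdh5 UMIs, a ratio inside each library that no scaling can move, were 51.3 (49.8 to 52.8) in M3cKO PNX, 31.4 (30.6 to 32.1) in Foxo1cKO PNX, 38.6 (37.8 to 39.5) in WT PNX and 68.2 (66.9 to 69.5) in sham. It shows Cldn5 and Cdh5 parting between libraries, whichever of them moved.

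**Figure D1:**
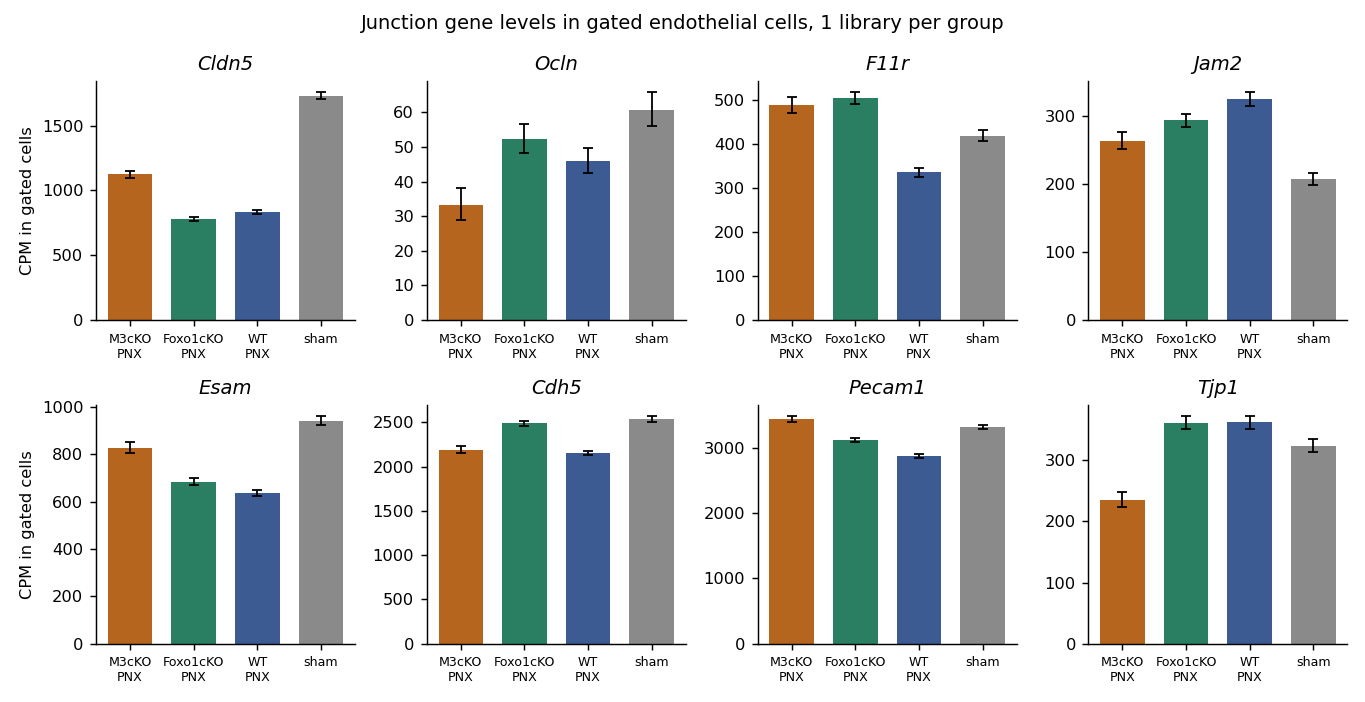
Levels of the 8 measured junction genes in gated endothelial cells. Bars are CPM with exact 95% Poisson intervals, 1 library per group and an axis from 0 in each panel. Cldn5 stands at 832 CPM in WT PNX and 1731 CPM in sham, and Tjp1 is lowest in M3cKO PNX at 235 CPM.

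Against WT PNX, the Cldn5 difference of M3cKO PNX was uneven over classes. The M3cKO PNX level was above the WT PNX level in 7 of 8 classes, with lymphatic cells the exception (381 CPM against 443 CPM). In venous cells it was at 610.3 CPM in M3cKO PNX against 258 CPM in WT PNX, 2.37 times as high (2.08 to 2.69). In aerocytes it was 1.10 times as high (1.03 to 1.17). In Foxo1cKO PNX Cldn5 was below WT PNX in 7 of 8 classes without passing 1.5-fold in any, from 0.742 in arterial cells to 1.07 in stress state cells. Male-type cells gave 629.6 CPM in Foxo1cKO PNX and 765 CPM in WT PNX, female-type cells 761 CPM and 752 CPM.

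Levels of Cldn5 also differed between the named classes. Averaged over the 4 libraries, aerocytes had the highest level (1244 to 2319 CPM) and venous cells the lowest (208 to 709 CPM). Venous cells were not the lowest in each library. In M3cKO PNX lymphatic cells were lower (381 CPM against 610.3), and in sham proliferating cells were lower (508 CPM against 709). General capillary (1052 to 1993 CPM), interferon state (842 to 1836 CPM) and stress state cells (949.5 to 1700.1 CPM) overlapped, and so did arterial (486 to 1172 CPM), lymphatic (381 to 1053 CPM) and proliferating cells (344 to 659 CPM). An unnamed endothelial cluster led by Fabp4, C1qtnf9 and Igfbp3 had less still, at 0 of 24358 UMIs in M3cKO PNX (which allows up to 123 CPM), 136 CPM in Foxo1cKO PNX, 98 in WT PNX and 204 in sham, while its Pecam1 levels were 2785 to 3449 CPM. General capillary cells came from 2 clusters, and the one with shallower cells held most of them in M3cKO PNX and the other most of them in the 3 other libraries.

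Ocln encodes occludin, a tight junction protein that spans the membrane (chromosome 13, 100496507 to 100552718, minus strand, ENSMUSG00000021638). The level was 33.3 CPM (28.9 to 38.2) in M3cKO PNX, 52.3 (48.3 to 56.5) in Foxo1cKO PNX, 45.9 (42.3 to 49.7) in WT PNX and 60.8 (56.1 to 65.7) in sham. The M3cKO PNX level was 1.38-fold lower than in WT PNX (ratio 0.726, 0.617 to 0.851), and the WT PNX level 1.32-fold lower than in sham, both inside 1.5-fold. In male-type cells Ocln was at 32.0 CPM in M3cKO PNX against 38.5 CPM in WT PNX (0.830, 0.626 to 1.09). That interval includes 1 and rests on 80 and 156 UMIs. The M3cKO PNX to WT PNX ratio was below 1 in 5 and above 1 in 2 of 7 measured named classes. It was lowest in general capillary cells, at 29.3 CPM against 52.2 CPM (0.561, 0.375 to 0.827), from 39 and 89 UMIs. In aerocytes it was near 1, at 72.7 CPM against 71.1 CPM (1.02, 0.756 to 1.37). Aerocytes were 10.2% of gated cells in M3cKO PNX and 17.1% in WT PNX. Among the named classes Ocln was highest in aerocytes (71.1 to 90.6 CPM) and arterial cells (60.7 to 82.1 CPM), which did not differ beyond their spread over libraries. Lymphatic cells held 0 UMIs in M3cKO PNX, Foxo1cKO PNX and WT PNX, which allows up to 15.5, 13.5 and 9.91 CPM, and 1 UMI in sham.

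F11r, Jam2 and Esam encode junctional adhesion molecule A, junctional adhesion molecule B and endothelial cell-selective adhesion molecule, immunoglobulin-type proteins of the contact that also take part in the passage of leukocytes. F11r lies on chromosome 1 (171437535 to 171464603, plus strand, ENSMUSG00000038235). Gated cells held 488 CPM (471 to 506) in M3cKO PNX, 504 (492 to 517) in Foxo1cKO PNX, 335 (325 to 345) in WT PNX and 418 (406 to 431) in sham. WT PNX was the lowest library, and both knockout libraries lay above sham as well. The Foxo1cKO PNX level was 1.505 times the WT PNX level (1.45 to 1.56), just past 1.5-fold, and the M3cKO PNX level 1.46 times (1.39 to 1.53), just inside it. The Foxo1cKO PNX ratio was inside 1.5-fold under 9 of 17 other settings (1.27 to 1.499). These comparisons share the WT PNX library.

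F11r was above WT PNX in 8 of 8 classes in each knockout library, past 1.5-fold in 4 classes of M3cKO PNX and in 5 of Foxo1cKO PNX. Of all measured genes, 27.3% (aerocytes) to 62.0% (interferon state cells) were apart in those 4 classes of M3cKO PNX, and 7.2% (aerocytes) to 57.1% (interferon state cells) in those 5 of Foxo1cKO PNX. The Foxo1cKO PNX ratio ran from 1.27 in general capillary cells (444 CPM against 350) to 2.07 in interferon state cells (590.4 CPM against 285, from 61 and 37 UMIs). In aerocytes it was at 521 CPM in Foxo1cKO PNX against 343 in WT PNX, and in arterial cells at 694 against 456. The M3cKO PNX ratio ran from 1.12 in venous cells to 2.01 in proliferating cells (512 CPM against 254). Among the named classes, lymphatic (397 to 746 CPM) and arterial cells (456 to 694 CPM) had the highest F11r levels and overlapped each other, and the ranges of venous (314 to 460.1 CPM) and proliferating cells (254 to 512 CPM), lowest on average, overlapped too.

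The F11r difference was also measured within male-type and female-type cells. In Foxo1cKO PNX against WT PNX it was 496 CPM against 362 CPM in male-type cells (1.37, 1.27 to 1.48) and 496 CPM against 310.0 CPM in female-type cells (1.60, 1.48 to 1.73). Foxo1 itself was at 36.3 CPM in female-type and 128 CPM in male-type cells of Foxo1cKO PNX, against 218 CPM and 213 CPM in WT PNX. The female-type to male-type ratio of F11r was 1.001 (0.930 to 1.08) in Foxo1cKO PNX and 0.857 (0.791 to 0.929) in WT PNX. Foxo1 was 3.52-fold lower in female-type than in male-type cells of Foxo1cKO PNX, and in WT PNX this ratio was 1.02. Against WT PNX cells of the same type, Foxo1 was 6.01-fold lower in female-type and 1.67-fold lower in male-type cells. Whether F11r follows the Foxo1 level was not tested. In male-type cells F11r was at 466 CPM in M3cKO PNX against 362 CPM in WT PNX (1.29, 1.19 to 1.39). B cells carried an F11r UMI in 3.20%, 2.43%, 1.83% and 0% of cells in M3cKO PNX, Foxo1cKO PNX, WT PNX and sham, against 60.5%, 69.1%, 60.3% and 55.2% of gated cells.

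**Figure D2:**
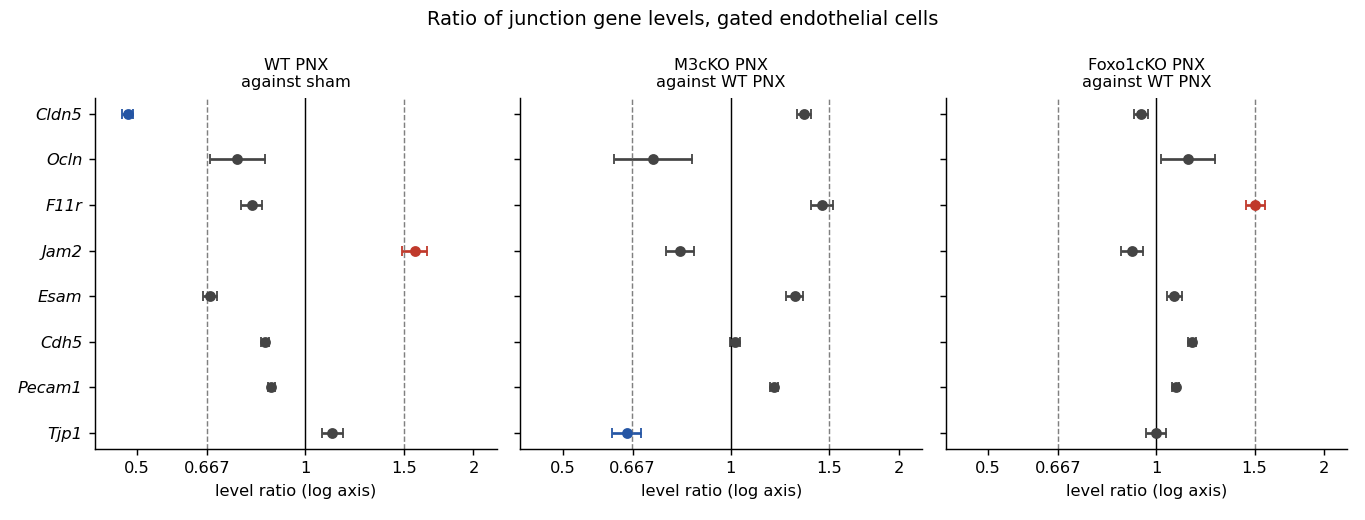
Ratio of levels in the 3 comparisons, on a log axis, for the 8 measured members with exact conditional 95% intervals. Dashed lines mark 1.5-fold in each direction; red points passed it upwards, blue points downwards and grey points did not. Cldn5 in WT PNX against sham lies farthest from 1, at 0.480.

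Jam2 lies on chromosome 16 (84774123 to 84825928, plus strand, ENSMUSG00000053062). Its level was 263 CPM (250.3 to 276) in M3cKO PNX, 293 (284 to 303) in Foxo1cKO PNX, 324 (315 to 334) in WT PNX and 207 (198 to 215) in sham. All PNX libraries lay above sham. The WT PNX level was 1.57 times the sham level (1.49 to 1.65), the only member at least 1.5-fold higher there. M3cKO PNX was at 0.811 times WT PNX (0.766 to 0.859) and Foxo1cKO PNX at 0.904 times (0.865 to 0.945).

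Among the named classes, Jam2 was highest in arterial and venous cells in each library. Arterial (595 to 1088 CPM) and venous cells (631 to 898 CPM) overlapped each other and lay above general capillary cells (117 to 229 CPM), which lay above aerocytes (60.1 to 78.5 CPM), and lymphatic cells held 0 to 5 UMIs. The unnamed cluster led by Fabp4 also had high Jam2, at 657 CPM in M3cKO PNX, 694 in Foxo1cKO PNX, 767 in WT PNX and 807 in sham. Arterial and venous cells together were 11.9% of gated cells in M3cKO PNX, 17.8% in Foxo1cKO PNX, 16.1% in WT PNX and 11.3% in sham. They gave 37.6%, 53.7%, 55.3% and 39.4% of the Jam2 UMIs in that order. In a level summed over all gated cells, more cells of a type and more RNA per cell cannot be told apart, so the classes were compared on their own. In general capillary cells Jam2 was at 158 CPM in WT PNX against 172 CPM in sham (0.918, 0.783 to 1.08), on the other side of 1 from the pooled ratio. In arterial cells it was at 965 CPM against 595 CPM (1.62, 1.38 to 1.91) and in venous cells at 898 CPM against 631 CPM (1.42, 1.30 to 1.56). With 6 named classes given the same weights in both libraries the ratio was 1.35. These were general capillary, aerocyte, arterial, venous, lymphatic and stress state cells, so the unnamed clusters were left out. In male-type cells Jam2 was at 377 CPM in WT PNX against 199.7 CPM in sham (1.89, 1.72 to 2.07).

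In M3cKO PNX against WT PNX, Jam2 ran in opposite directions in general capillary and venous cells. It was 1.45 times as high in general capillary cells (229 CPM against 158 CPM, 1.23 to 1.72) and 0.716 times in venous cells (642 CPM against 898 CPM, 0.646 to 0.792). The 2 clusters behind the general capillary class held 400 and 294 cells in M3cKO PNX and 268 and 425 in WT PNX. The part of this in the general capillary ratio was not tested. Aerocytes gave 78.5 CPM against 68.0 CPM (1.15, 0.860 to 1.54). Arterial cells, of which M3cKO PNX held 47, gave 1088 CPM against 965 CPM (1.13, 0.929 to 1.36). The pooled ratio of 0.811 thus combined classes above and below 1.

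Esam lies on chromosome 9 (37528078 to 37538319, plus strand, ENSMUSG00000001946). Levels were 828 CPM (806 to 851) in M3cKO PNX, 685 (670 to 700) in Foxo1cKO PNX, 636 (622 to 649) in WT PNX and 943 (924 to 962) in sham. The order of the libraries was that of Cldn5 except that Foxo1cKO PNX and WT PNX changed places. The WT PNX level was 1.48-fold lower than in sham (ratio 0.674, 0.655 to 0.694), the member nearest to 1.5-fold from inside. Which side it lay on turned on the setting, since the ratio passed 1.5-fold with TMM factors (0.642), median-of-ratios size factors (0.638), in general capillary cells (0.653) and in male-type cells (0.654). It was below sham in 8 of 8 classes, in general capillary cells at 656 CPM against 1004 CPM and in aerocytes at 793 CPM against 1107 CPM. M3cKO PNX was at 1.30 times WT PNX (1.26 to 1.35), and Foxo1cKO PNX at 1.08 times (1.05 to 1.11). Esam was near absent from lymphatic cells, with 1 UMI in M3cKO PNX, 6 in Foxo1cKO PNX, 12 in WT PNX and 28 in sham (5.16 to 75.6 CPM), and each other named class held 521 CPM or more in each library.

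**Figure D3:**
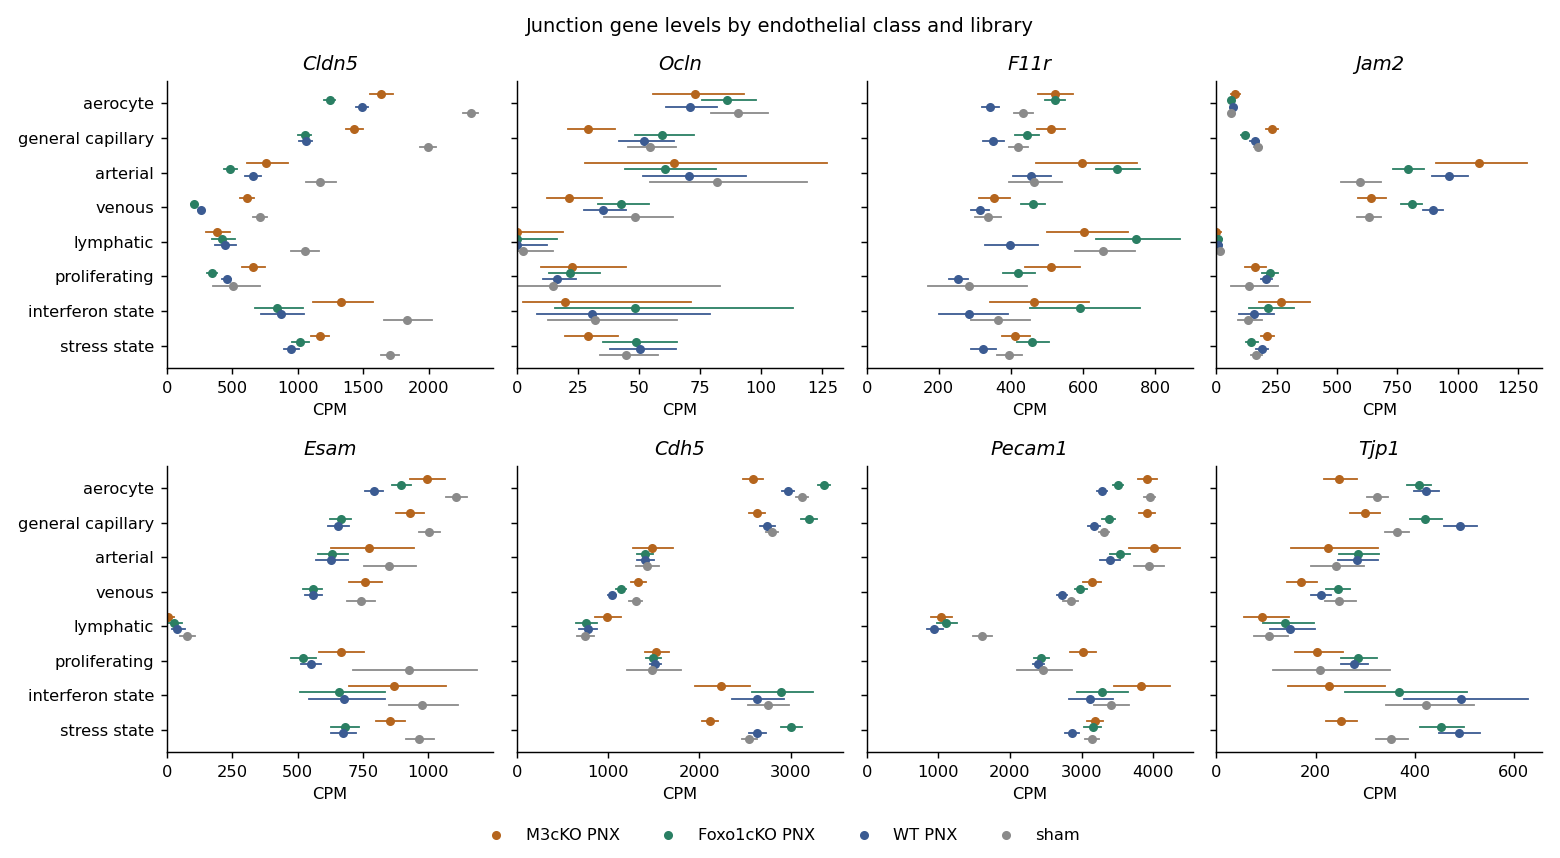
Levels of 8 junction genes by endothelial class (rows) and library (colours), in CPM with exact 95% Poisson intervals on an axis from 0. Jam2 is highest in arterial and venous cells, Esam is near 0 in lymphatic cells (5.16 to 75.6 CPM), and sham lies right of the PNX libraries for Cldn5 in all classes except proliferating cells.

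Cdh5 encodes VE-cadherin, the adhesive protein of endothelial adherens junctions (chromosome 8, 104101625 to 104144511, plus strand, ENSMUSG00000031871). VE-cadherin transcripts stood at 2189.7 CPM (2153 to 2227) in M3cKO PNX, 2489.9 (2462 to 2518) in Foxo1cKO PNX, 2152 (2127 to 2177) in WT PNX and 2538 (2508 to 2569) in sham. These levels spanned less than 1.2-fold, from 0.848 for WT PNX against sham to 1.16 for Foxo1cKO PNX against WT PNX. None of the 8 named classes differed by 1.5-fold in any of the 3 comparisons. Of the 4 unnamed endothelial clusters, the one led by Fabp4, of which M3cKO PNX held 10 cells, was at 575 CPM in M3cKO PNX against 1150.2 in WT PNX (ratio 0.4997, 0.271 to 0.845), from 14 and 564 UMIs, where 77.0% of all measured genes were apart. Among the named classes capillary cells had the most Cdh5 on average, aerocytes 2582 to 3361 CPM and general capillary cells 2628 to 3202 CPM. Interferon state (2239 to 2894 CPM) and stress state cells (2114 to 3007 CPM) overlapped both. An unnamed cluster led by Ntrk2, Cdk19 and Slc6a6 had as much as capillary cells, at 2934 CPM in M3cKO PNX, 3427 in Foxo1cKO PNX, 3021 in WT PNX and 3072 in sham. So did the one led by Esm1, Glb1l2 and Cxcl12, at 3055, 3316, 2902 and 2879 CPM in that order. Arterial cells held 1406 to 1482 CPM, venous cells 1041 to 1333 CPM and lymphatic cells 750.4 to 989.8 CPM, and these ranges did not overlap. An antisense gene of the annotation, Gm29682, overlaps Cdh5 and had 0 UMIs in the gate.

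Pecam1 encodes CD31, an adhesion protein of the lateral border and the protein the cells were selected on (chromosome 11, 106654217 to 106750628, minus strand, ENSMUSG00000020717). Its transcripts stood at 3442 CPM (3396 to 3488) in M3cKO PNX, 3122 (3091 to 3154) in Foxo1cKO PNX, 2882 (2853 to 2911) in WT PNX and 3319 (3284 to 3354) in sham. WT PNX was lowest, at 0.868 times sham (0.856 to 0.881). It was below sham in 8 of 8 classes, and M3cKO PNX and Foxo1cKO PNX were above WT PNX in 8 of 8, by at most 1.26-fold and 1.18-fold. WT PNX was past 1.5-fold below sham in 1 class, lymphatic cells (945 CPM against 1617; 0.584, 0.506 to 0.674). There 49.2% of all measured genes were apart. Lymphatic cells had the least Pecam1 (945 to 1617 CPM), and the sham lymphatic cells had the highest level of that class. Pecam1 UMIs were also in 24.2% to 43.3% of B cells, which carry CD31.

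Tjp1 encodes ZO-1, the scaffold that links tight junction proteins to actin (chromosome 7, 65296165 to 65527781, minus strand, ENSMUSG00000030516). ZO-1 transcripts made up 235 CPM (224 to 248) in M3cKO PNX, 361 (351 to 372) in Foxo1cKO PNX, 362 (352 to 372) in WT PNX and 324 (313 to 335) in sham. M3cKO PNX stood alone below the 3 other libraries. It was 1.54-fold lower than WT PNX (ratio 0.650, 0.613 to 0.690), the only member past 1.5-fold in that comparison. WT PNX was at 1.12 times sham (1.07 to 1.17), and Foxo1cKO PNX and WT PNX had a ratio of 0.998 (0.958 to 1.04).

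The lower Tjp1 of M3cKO PNX was found in 8 of 8 classes and was past 1.5-fold in 5. In these 5, the share of all measured genes that were apart was 27.3% in aerocytes, 28.0% in general capillary cells, 32.2% in stress state, 50.9% in lymphatic and 62.0% in interferon state cells. General capillary cells of M3cKO PNX held 299 CPM and those of WT PNX 492 CPM, and aerocytes held 248 CPM in M3cKO PNX against 423 CPM in WT PNX. It was nearest to 1 in venous cells (170.0 CPM against 211; 0.806, 0.656 to 0.986). In male-type cells alone it was at 227 CPM in M3cKO PNX against 349 CPM in WT PNX (0.649, 0.587 to 0.715). Over all measured genes the median log2 ratio of this comparison was −0.14, and it was −0.01 with TMM factors and 0.02 with median-of-ratios size factors. The Tjp1 ratio with those scalings was 0.711 and 0.726, inside 1.5-fold, while F11r passed it upwards under both and Cldn5 under the second. Over all genes 29.3% of those apart were higher by total UMIs, 47.6% with TMM factors and 52.1% with median-of-ratios factors.

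**Figure D4:**
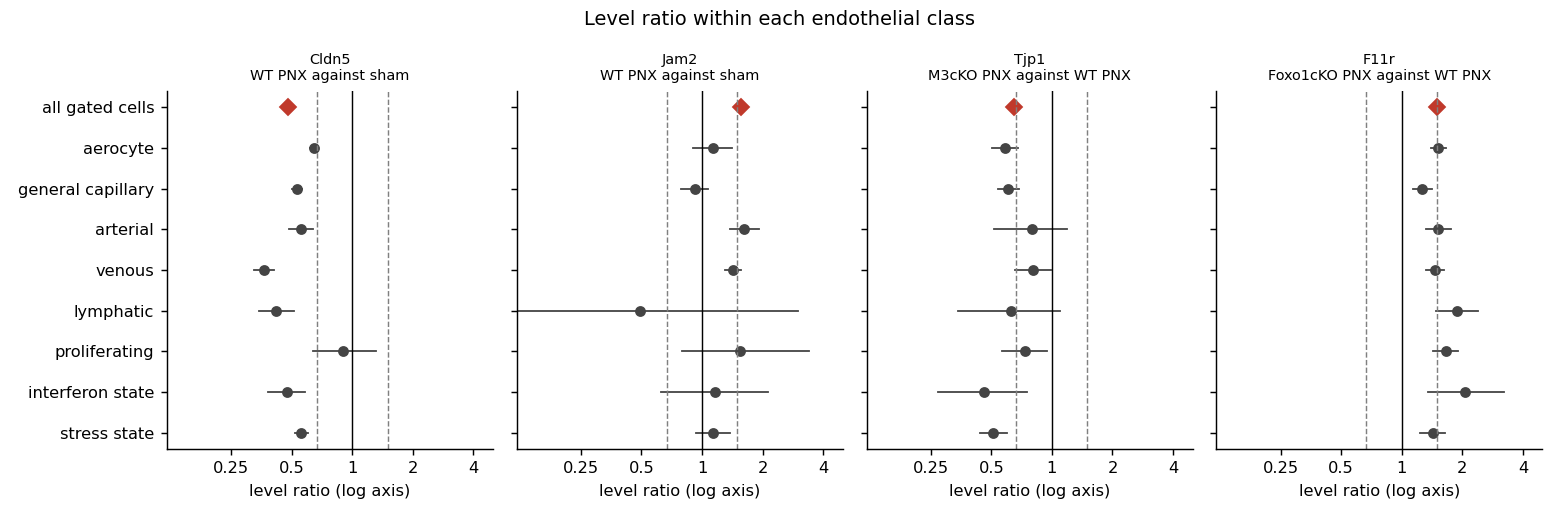
Level ratio within each of 8 endothelial classes for 4 differences that passed 1.5-fold over all gated cells (red diamonds), on a log axis, with exact conditional 95% intervals and dashed lines at 1.5-fold. The Cldn5, Tjp1 and F11r points lie on 1 side of 1 in all classes, and Jam2 crosses 1 in general capillary cells at 0.918 and lymphatic cells.

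Cgn encodes cingulin, a tight junction adaptor best known from epithelium (chromosome 3, 94760069 to 94786492, minus strand, ENSMUSG00000068876). The gate held 1 Cgn UMI in M3cKO PNX, 6 in Foxo1cKO PNX, 16 in WT PNX and 5 in sham, under 10 CPM in each, so it was not counted as measured and no ratio is given. Of these 28 UMIs, 14 lay in the 150 cells of a cluster led by Ager, a gene of alveolar type 1 cells, and 5 in the 24 cells of an alveolar type 2-like cluster. The endothelial clusters held the other 9, from 13830 cells. Cgn transcripts in this gate were therefore found mainly with epithelial transcripts.

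Counted over the 8 measured members, 2 were at least 1.5-fold apart in WT PNX against sham (Jam2 higher, Cldn5 lower), beside 17.8% of 9094 measured genes (11.1% higher and 6.74% lower). Of the genes apart there, 62.2% were higher by total UMIs, 50.9% with TMM factors and 49.2% with median-of-ratios factors. In M3cKO PNX against WT PNX 1 was apart (Tjp1, lower), beside 20.3% of 9022 genes (5.94% higher and 14.4% lower). In Foxo1cKO PNX against WT PNX 1 was apart (F11r, higher), beside 2.6% of 9011 genes (1.03% higher and 1.56% lower). In WT PNX against sham and M3cKO PNX against WT PNX the members' share is near that of all genes, so the counts there are no result about the members. In Foxo1cKO PNX against WT PNX the count is 1 gene at 1.505-fold and became 0 under 10 other settings, so it is no firm result about the members either. The members' median log2 ratio was −0.28, 0.14 and 0.11 in these comparisons, and that of all measured genes 0.05, −0.14 and −0.01. Below 1 were 6 of 8 members in WT PNX against sham, with Jam2 and Tjp1 the exceptions.

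Other genes of the same contacts were read from 5 lists of catenins and nectins, tight junction proteins and scaffolds, further contact proteins, regulators and connexins, of which 77 were in the table. In WT PNX against sham, 6 of 59 measured were higher and 2 lower, 13.6% apart beside the 17.8% of all genes. The 3 largest ratios were those of Cldn18, a claudin of alveolar type 1 cells (40.2 CPM against 15.5; 2.60), Ptprj, a receptor phosphatase of endothelial contacts (60.6 against 29.2; 2.08), and Gja5, connexin 40 of arterial gap junctions (70.6 against 35.0; 2.02). The 3 smallest were those of Amotl2, an angiomotin-like protein that binds VE-cadherin (154 CPM against 262; 0.588), Icam2, a leukocyte ligand of endothelial junctions (285 against 429.8; 0.662), and Rapgef3, the exchange factor EPAC1 that acts on Rap1 (35.7 against 51.1; 0.699, inside 1.5-fold).

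In M3cKO PNX against WT PNX, 3 of 57 were higher and 8 lower, 19.3% apart beside 20.3% of all genes. Rapgef3 (58.7 CPM against 35.7; 1.64), Mcam, the adhesion protein CD146 (1001 against 618; 1.62), and Rasip1, a Ras-interacting protein needed for vessel lumens (1487 against 941; 1.58), had the largest ratios. Gja5 (22.4 CPM against 70.6; 0.317), Cldn18 (14.6 against 40.2; 0.364) and Amot, angiomotin (5.95 against 11.7; 0.508), had the smallest. In Foxo1cKO PNX against WT PNX, 1 of 58 was higher, Cdh13, the lipid-anchored T-cadherin (101 CPM against 54.6; 1.84), and 1 lower, Cldn18 (21.3 against 40.2; 0.529), 3.45% apart beside 2.6% of all genes. In none of the 3 comparisons did the lists' share stand far from that of all genes. Ccm2 (1.38), Sox18 (1.32), Amot (0.714) and Magi3 (0.758) followed inside 1.5-fold.

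Levels of markers of other cell types also differed between libraries. Summed levels of 6 alveolar type 1 markers were 402 CPM in M3cKO PNX, 419 in Foxo1cKO PNX, 428 in WT PNX and 561 in sham, and those of 6 alveolar type 2 markers 163, 192, 719 and 332 CPM. Cldn18 is itself 1 of the 6 type 1 markers, and Hopx, another, was also among the leading genes of an aerocyte cluster. The Ager-led cluster was 0.296% of gated cells in M3cKO PNX, 1.27% in Foxo1cKO PNX, 1.51% in WT PNX and 0.854% in sham. The alveolar type 2-like cluster was 0.0422%, 0.0811%, 0.371% and 0.131% in that order. Cldn18 was highest in WT PNX like the type 2 sum and the shares of both clusters. The type 1 sum was highest in sham instead, and so was that of 6 airway epithelial markers (317 CPM in WT PNX, 605 in sham). The source of Cldn18 was not tested. Arterial cells were 1.98% of gated cells in M3cKO PNX, 5.73% in Foxo1cKO PNX, 4.50% in WT PNX and 2.87% in sham. Gja5 levels were 22.4 CPM in M3cKO PNX, 70.6 CPM in WT PNX and 35.0 CPM in sham, lower where arterial cells were fewer, and the part of these shares in its ratios was not tested.

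Genes with the pattern most like that of a member were sought among 3460 genes over 26 points, each the level in 1 class and library with at least 50 cells. Points of 1 library share its depth, and classes share their identity, so these are descriptions. Cdh5 was followed most closely by Ctnnd1, p120-catenin, which binds the tail of VE-cadherin (r = 0.98), then Adgrf5 and Mcc. Jam2 was followed by Heg1, a transmembrane protein of endothelial junctions (r = 0.98), then Ptprj and Samd5. Esam had Acvrl1, the BMP receptor ALK1 (r = 0.97), Epas1 and Ly6a, and Pecam1 had Ly6a (r = 0.97), Kcnq1 and Esam. Cldn5 had Cyp4b1 (r = 0.90), Dusp7 and Rin2, and Tjp1 had Mmp15 (r = 0.93), Arhgef15 and Ifi203. F11r had no close companion, the highest being Wsb2 (r = 0.64), Srp9 and Lamc1.

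**Figure D5:**
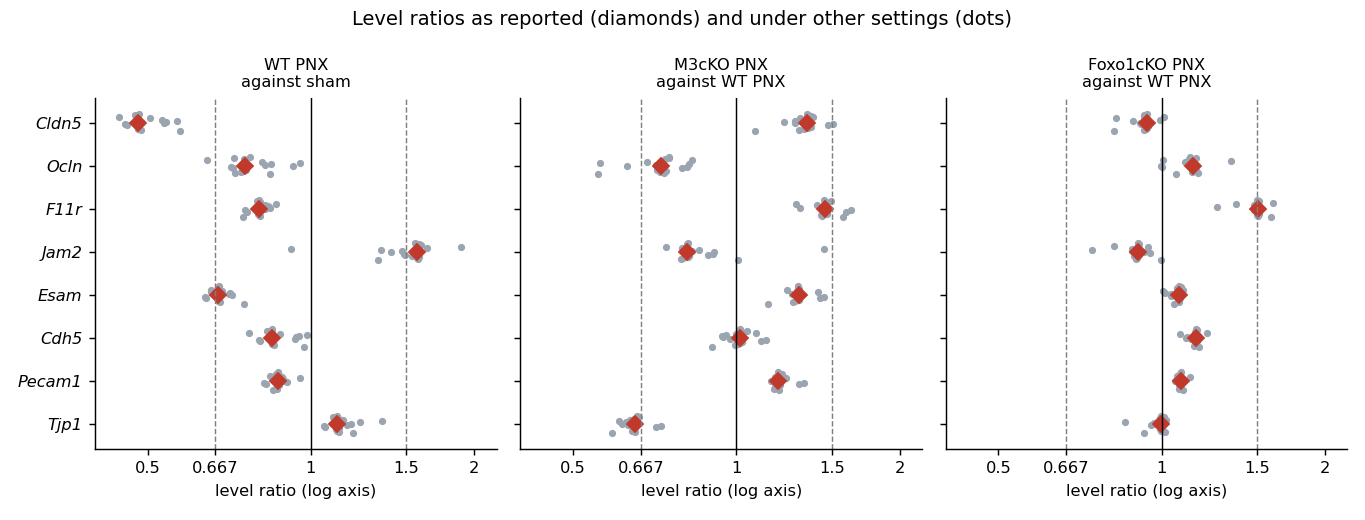
Level ratios of the 8 measured members as reported (red diamonds) and under each other setting (grey dots), on a log axis with dashed lines at 1.5-fold. Cldn5 in WT PNX against sham stays between 0.443 and 0.575, and Jam2 ranges from 0.918 to 1.89.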

How the data were processed

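The values as the authors deposited them are UMI counts, whole and not normalized, 1 per gene and barcode. Cell Ranger 2.1.1 and the mm10 build are named in the labels' protocols, R 3.4.4 in the submitters' processing notes, and software 3.0.0 in the file headers. Gene positions come from GENCODE M21 (GRCm38).

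The members and gene lists were chosen with earlier results of these data known. Counts of gated cells were summed per library and class. A gene counted as measured at 10 CPM in either library and as apart at 1.5-fold, a rule of size and not a test. Intervals were exact (Poisson for levels, conditional binomial for ratios). Cells were clustered with scanpy 1.11.5 and igraph 0.11.9 (2000 variable genes, 30 components, 20 neighbours, resolution 1) after each gene was scaled within each library, since clustering without that step split general capillary cells by library. Members, the junction lists, sex-linked, mitochondrial, ribosomal and haemoglobin genes were left out. A class needed 3 markers among the 50 leading genes and 2 more than any other class. It also needed no fewer than any other class among the first 10. A cluster with at least 3 genes of DNA replication among its first 10 was left unnamed unless it was proliferating. Clusters whose best class was another cell type with at least 3 markers were counted with other cell types, named or not. Of 20 clusters, 4 endothelial ones stayed unnamed. Scrublet's own threshold marked 108, 237, 210 and 0 barcodes in M3cKO PNX, Foxo1cKO PNX, WT PNX and sham and was not used; doublets were kept, and taking out the highest scores (0.8% per 1000 barcodes) was an alternative. TMM factors came from edgeR 4.0.16 in R 4.3.3. The steps were tested on simulated data.

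Named genes were all 9 members, the 3 largest and 3 smallest ratios per comparison in the 5 other lists, and for each member at 50 CPM in every library the 3 genes of highest correlation. Precision is set by 6214663 to 13488091 gated UMIs per library, where 3 counts are 0.222 to 0.483 CPM.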

Additional observations from a re-analysis of the deposited data

How the results depend on the processing

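No paired analysis was possible because each group is 1 library, and for the same reason no replicate could be left out. Cldn5 stayed at least 1.5-fold lower in WT PNX than in sham under all 16 other settings (0.443 to 0.575). The Jam2 ratio of that comparison fell inside 1.5-fold with at most 5% mitochondrial UMIs (1.33), TMM (1.49) or median-of-ratios factors (1.48), means of single-cell CPM (1.41), thinned cells (1.47) and weighted classes (1.35), and turned to 0.918 in general capillary cells. The count of members apart there, 2, became 1 with at most 5% mitochondrial UMIs, means of single-cell CPM, thinned cells, weighted classes or a 2-fold rule, and 4 in male-type cells, where Esam (0.654) and Ocln (0.644) joined. It stayed at 2 with TMM or median-of-ratios factors and in general capillary cells, but there Esam (0.642, 0.638 and 0.653) stood in place of Jam2.

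In M3cKO PNX against WT PNX the count of 1 became 3 with at most 5% mitochondrial UMIs, 2 with median-of-ratios factors, means of single-cell CPM, general capillary cells alone or no minimum level, and 0 with a 2-fold rule. With median-of-ratios factors these 2 were F11r (1.63) and Cldn5 (1.51), and Tjp1 fell inside 1.5-fold (0.726). It stayed at 1 with TMM factors, but there F11r stood in place of Tjp1. Jam2 turned to 1.45 in general capillary cells. In Foxo1cKO PNX against WT PNX the count of 1 became 0 with the highest Scrublet scores removed, means of single-cell CPM, thinned cells, weighted classes, general capillary cells, no proliferating cells, male-type cells, the clusters of other cell types left out, 5 CPM added to both levels or a 2-fold rule, and 2 with no minimum level. In the 9 of these settings that change the F11r ratio and end its call it was 1.27 to 1.499. Leaving out the clusters of other cell types, and the stress state cluster, were chosen after seeing the data. Except where the setting itself removes cells or genes, the cause was not tested. Depth limits Ocln (207 to 632 UMIs) and classes under 50 cells.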
